A study of Mus musculus with 40 samples.

Results

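Cytosolic chaperones hold newly made and damaged proteins in a state from which they can fold, and many of their genes are induced together by heat shock factor 1 (HSF1). The genes described here are 36 mouse genes of this system among the 55401 genes of the table. They were chosen by symbol, as a list drawn up with earlier results of these same libraries known, and no measured threshold entered the choice. Counts of members that differed between groups are therefore descriptions of this list and no independent evidence for it. All 36 symbols were found in the table, and 35 or 36 of them passed the filter on low counts, a mean of at least 10 estimated counts over the libraries compared. The member that was mostly below it was Hspa1l, a testis-enriched HSP70.

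RNA of the renal cortex was sequenced from 40 male mice in 8 groups of 5. Heterozygous Ins2-Akita mice on C57BL/6J carry a mutant Ins2 allele that misfolds in pancreatic beta cells and makes them diabetic, and their wild type (WT) littermates served as controls. From 6 to 22 weeks of age mice of both genotypes received the mitochondria-targeted dicarbonyl scavenger MitoGamide at 10 mg/kg daily by oral gavage, or its vehicle, 10% ethanol in water. The labels also name Akita and WT groups given water and groups given MitoQ, a mitochondria-targeted antioxidant, and the dose of MitoQ is not given in the sources used here. The questions were what diabetes did to the list, and whether MitoGamide, MitoQ or the vehicle changed it. Each library came from an individual animal. Groups given water or MitoQ are called the water arm here, and groups given ethanol or MitoGamide the ethanol arm. That MitoQ was given in water is assumed, as the sources used here do not state its vehicle. Anything that differed between the ethanol and the water arm besides the vehicle cannot be told apart from it.

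HSF1 is kept inactive by chaperones including HSP90. When unfolded protein draws these chaperones away, HSF1 forms trimers, binds repeated nGAAn units called heat shock elements and drives its targets, above all the inducible HSP70 genes. HSP70 proteins bind exposed hydrophobic stretches in cycles of ATP hydrolysis, which HSP40 proteins start and HSP110 proteins reset by nucleotide exchange. HSP90 and its cochaperones finish the folding of kinases and nuclear receptors, small heat shock proteins hold clients without ATP, and the ring-shaped CCT complex folds actin and tubulin. In kidney these chaperones are constitutively present, and HSP70 and Hspb1 are known to rise after ischaemia and osmotic stress.

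Promoter stretches of 5 members are printed to show the elements that HSF1 recognises in genes whose RNA levels are compared below. RefSeq (GRCm38.p6) gave the 250 bases before the start of 29 of the 36 members, and 3 letter patterns were searched on both strands. An array of 3 alternating units, TTC, GAA and TTC with NN between them, was found in Hspd1 and Hspe1, 2 of the 29 members, against 0.514% of the 27025 genes with a RefSeq promoter, which are the base of the motif shares. The pair GAANNTTC, which overlaps the array, was found in 9 members (Cct2, Dnaja1, Dnaja4, Fkbp4, Hspa1a, Hspa1b, Hspb1, Hspd1 and Hspe1) and 7.73% of those genes. TTCNNGAA, the other overlapping pair, was found in 5 members (Cct5, Dnajb4, Hspd1, Hspe1 and Hsph1) and 8.11% of those genes. A match describes letters only and is not a bound site, and no match says only that these letters were not in the window. Capitals mark the matches in the following 60-base windows, written 5′ to 3′ on the strand of the gene.
Hspa1a: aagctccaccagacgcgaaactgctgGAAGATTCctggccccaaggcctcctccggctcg
Hspa1b: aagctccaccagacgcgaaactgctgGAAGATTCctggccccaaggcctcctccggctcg
Hspd1: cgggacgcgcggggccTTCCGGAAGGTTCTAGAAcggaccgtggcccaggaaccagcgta
Hsph1: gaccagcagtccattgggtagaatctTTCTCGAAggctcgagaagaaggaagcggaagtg
Hspb1: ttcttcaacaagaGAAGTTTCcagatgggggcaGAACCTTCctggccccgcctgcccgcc
The windows lie at chr17:34972227-34972286 (minus strand) for Hspa1a, chr17:34959309-34959368 (minus) for Hspa1b, chr1:55088033-55088092 (minus) for Hspd1, chr5:149636336-149636395 (minus) for Hsph1 and chr5:135887789-135887848 (plus) for Hspb1. The 2 inducible HSP70 genes carry the same 60 bases, and 247 of their 250 upstream bases (98.8%) are identical. In Hspd1 the array lies in the stretch of 215 bases between its RefSeq start and that of Hspe1, which is transcribed in the opposite direction, so that the same letters were found for both. The Gencode models of this pair overlap, Hspd1 (ENSMUSG00000025980.14) at chr1:55077835-55088243 on the minus strand and Hspe1 (ENSMUSG00000073676.4) at chr1:55088132-55091307 on the plus strand, and the Hspd1 window lies wholly inside the Gencode model of Hspd1. The Gencode annotation of the same build places Hspa1a (ENSMUSG00000091971.3) at chr17:34969190-34972156 and Hspa1b (ENSMUSG00000090877.3) at chr17:34956436-34959238, both on the minus strand, with Hspa1l beyond Hspa1a, and Hsph1 (ENSMUSG00000029657.15) at chr5:149614287-149636376, so that the Hsph1 window, upstream of the RefSeq start, overlaps the first bases of the Gencode model.

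Library totals ran from 9106654 to 24321424 estimated counts. In 10 libraries the median correlation with the others was under 0.95, and 9 of these were in the water arm (Akita water 2, 3 and 5, WT water 2, 3 and 4, Akita MitoQ 3 and 4, WT MitoQ 3), the other being Akita MitoGamide 5. The share of counts in protein-coding genes ran from 27.1% to 73.5%. Proximal tubule markers were present in every group, summing to between 13580 and 27750 CPM, counts scaled to a common library total, in the ethanol vehicle groups. Levels below are CPM scaled by TMM over all 40 libraries, and the 5 values of a group follow the replicate number, which has no meaning as an order.

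Levels between genes were compared per kilobase of exon, as the mean of the 5 WT mice on ethanol. The constitutive HSP70 Hspa8 was highest at 561 CPM per kilobase, followed by Hsp90ab1 at 276.5 and the mitochondrial chaperonin Hspd1 at 143. Hsp90aa1, the inducible HSP90, reached 112 and the mitochondrial HSP70 Hspa9 reached 105 CPM per kilobase. The inducible pair stood far lower at 21.0 (Hspa1b) and 14.6 (Hspa1a) CPM per kilobase, close to Hsph1 at 21.2. Lowest were Hspa2 at 1.48, Hsf2 at 1.33 and Hspa1l at 0.184 CPM per kilobase. Spread between mice of a group also differed between members. The within-group SD of log2 CPM was 0.88 for Hspa1a and 0.82 for Hspa1b, and it was 0.35 for Hspa8 and 0.27 for Hspa2. Its median was 0.57 over the 3 small heat shock proteins, 0.33 over the 7 CCT subunits, 0.27 over the 7 cochaperones and 0.26 over the 2 HSP90 genes.

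Most members of the list were lower in Akita than in WT kidney cortex on the ethanol vehicle. Of 35 members tested, 26 passed an adjusted p of 0.05 in edgeR's quasi-likelihood test, where 16.4% of all 17747 genes did, and 25 of the 26 were lower (8.22% of all genes) and 1 higher (8.18%). When all 40 libraries were fitted together 16 were called, all lower, against 4.92% of all genes. The median log2 fold change of the members was -0.49, against -0.002 over all genes, and 33 of 35 members had a negative value. In 25 members every Akita mouse was below every WT mouse, which held for 7.43% of all genes. All 3 HSP110 genes, both HSP90 genes and all 7 cochaperones of the list fell, as did 3 of 4 HSP70 genes, 3 of 4 HSP40 genes, 2 of 3 mitochondrial members and 4 of 7 CCT subunits. In whole cortex, fewer cells of a type and less RNA per cell cannot be told apart.

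Among HSP70 genes the inducible pair changed most. Hspa1a was at 21.0, 94.2, 44.3, 45.6 and 11.7 CPM in the WT mice and at 8.85, 8.51, 7.203, 14.7 and 10.0 CPM in the Akita mice. Hspa1b was at 25.9, 121, 63.7, 62.5 and 21.2 CPM in WT and at 16.4, 16.0, 11.7, 21.1 and 18.2 CPM in Akita mice. WT mouse 2 was highest for both genes and WT mouse 5 lowest, whose Hspa1a level lay inside the Akita range and whose Hspa1b level was just above it. The log2 fold change was -2.12 ± 0.44 (SE) for Hspa1a, a level 4.33 times lower (adjusted p = 0.00545), and -1.80 ± 0.39 for Hspa1b (adjusted p = 0.00670). The 2 genes share most of their sequence (65.4% of the 31-base words of Hspa1a and 68% of those of Hspa1b recur elsewhere), so reads could be split between them. Hspa8, which does the everyday HSP70 work of clathrin uncoating and protein import, was at 2148, 2944, 2340, 2508 and 2129 CPM in WT and at 1272, 1264, 1076, 1427 and 1112 CPM in Akita mice. These groups did not overlap, with a log2 fold change of -0.96 ± 0.11 (adjusted p = 0.000113), and 71.6% of its words are shared, mainly with the pseudogene Gm15459. Hspa2, an HSP70 best known from spermatogenesis, was the only member called higher, at 0.48 ± 0.15 (adjusted p = 0.0442), and its call was kept in 2 of 10 fits that each left out 1 library.

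HSP110 proteins are the nucleotide exchange factors of HSP70. Hsph1, their heat-inducible member, was at 125, 209, 147.7, 156 and 132 CPM in WT and at 49.8, 47.9, 40.3, 59.0 and 61.0 CPM in Akita mice. The groups did not overlap, and the log2 fold change was -1.56 ± 0.14 (adjusted p = 2.44e-05), a level 2.95 times lower. No 31-base word of Hsph1 recurs in another gene, so its counts rest on reads of its own. Hspa4l fell by 0.66 and Hspa4 by 0.30 on the log2 scale (adjusted p = 0.000295 and 0.0116).

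Both cytosolic HSP90 genes were lower. The inducible Hsp90aa1 was at 410.2, 592, 385, 374 and 440.4 CPM in WT and at 183, 194, 165, 228 and 232 CPM in Akita mice. The constitutive Hsp90ab1 was at 799, 979, 807, 781 and 781 CPM in WT and at 445, 455, 378, 509 and 489 CPM in Akita mice. Neither gene's groups overlapped, WT mouse 2 being highest in both. The log2 fold change was -1.12 ± 0.13 for Hsp90aa1 and -0.85 ± 0.09 for Hsp90ab1 (adjusted p = 0.000124 and 8.11e-05). Of the words of Hsp90aa1, 54% are shared, mainly with the pseudogene Gm12346.

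The 7 cochaperones of HSP90 and HSP70 that are on the list fell with them. Of 12 other HSP90 cochaperones 2 were called, both lower, where 16.4% of all genes were called, and their median log2 fold change was -0.0005. The difference between these sets was not tested. Ahsa2, a homologue of the HSP90 ATPase activator Ahsa1, was at 26.3, 31.1, 21.9, 25.8 and 24.5 CPM in WT and at 11.8, 12.3, 9.32, 11.9 and 12.8 CPM in Akita mice. It had the smallest p-value among the members, with a log2 fold change of -1.13 ± 0.10 (adjusted p = 2.44e-05). Ahsa1 itself was at 46.4, 58.2, 47.0, 46.9 and 49.6 CPM in WT and at 30.6, 26.2, 23.7, 28.9 and 30.3 CPM in Akita mice. Chordc1, an HSP90 partner with zinc-binding CHORD domains, was at 48.9, 72.8, 47.4, 52.5 and 51.8 CPM in WT and at 21.9, 19.4, 19.6, 27.3 and 26.5 CPM in Akita mice. The groups of these 3 genes did not overlap, and log2 fold changes were -0.81 ± 0.09 for Ahsa1 and -1.24 ± 0.13 for Chordc1 (adjusted p = 6.22e-05 and 6.28e-05). Log2 fold changes of the other cochaperones were -0.84 for Cacybp, -0.83 for Stip1, which bridges HSP70 and HSP90, -0.51 for Fkbp4, an immunophilin of steroid receptor complexes, and -0.49 for Bag3, which links HSP70 to autophagy.

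Of the 4 HSP40 genes, which hand clients to HSP70, 3 were lower. Dnaja1 was at 233, 326, 216, 231 and 227 CPM in WT and at 131, 122, 104, 117 and 122 CPM in Akita mice. Dnajb1, the classical heat-inducible HSP40, was at 39.4, 56.0, 41.0, 39.1 and 29.7 CPM in WT and at 21.0, 23.6, 17.4, 19.4 and 26.1 CPM in Akita mice. Neither pair of groups overlapped, with log2 fold changes of -1.03 ± 0.11 and -0.91 ± 0.15 (adjusted p = 5.95e-05 and 0.00121). Dnaja4, at -0.57, also fell, and Dnajb4, at -0.19, did not pass (adjusted p = 0.224).

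The mitochondrial pair Hspd1 and Hspe1, which together form the chaperonin of the matrix, were lower at -0.45 and -0.44 on the log2 scale (adjusted p = 0.000423 and 0.000944). For Hspa9, the HSP70 of the same compartment, the 95% interval of the log2 fold change was -0.15 to 0.13. Of the 31-base words of Hspd1, 50.1% recur in other genes, mainly the pseudogene Hspd1-ps3. For Hspe1 the share is 48.1%, mainly with AC117239.2. Of the 3 small heat shock proteins only Hspb1 passed. Hspb1 was lower at -1.27 ± 0.28 (adjusted p = 0.00826), Cryab had a positive value of 0.53 ± 0.22 that did not pass (adjusted p = 0.120), and the interval for Hspb8 was -0.48 to 0.36. CCT subunits moved little, from -0.30 to -0.13, and Tcp1, Cct3, Cct5 and Cct8 passed. RNA of the transcription factors themselves did not pass, with -0.05 for Hsf1 and -0.26 for Hsf2 (adjusted p = 0.749 and 0.106).

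**Figure D1:**
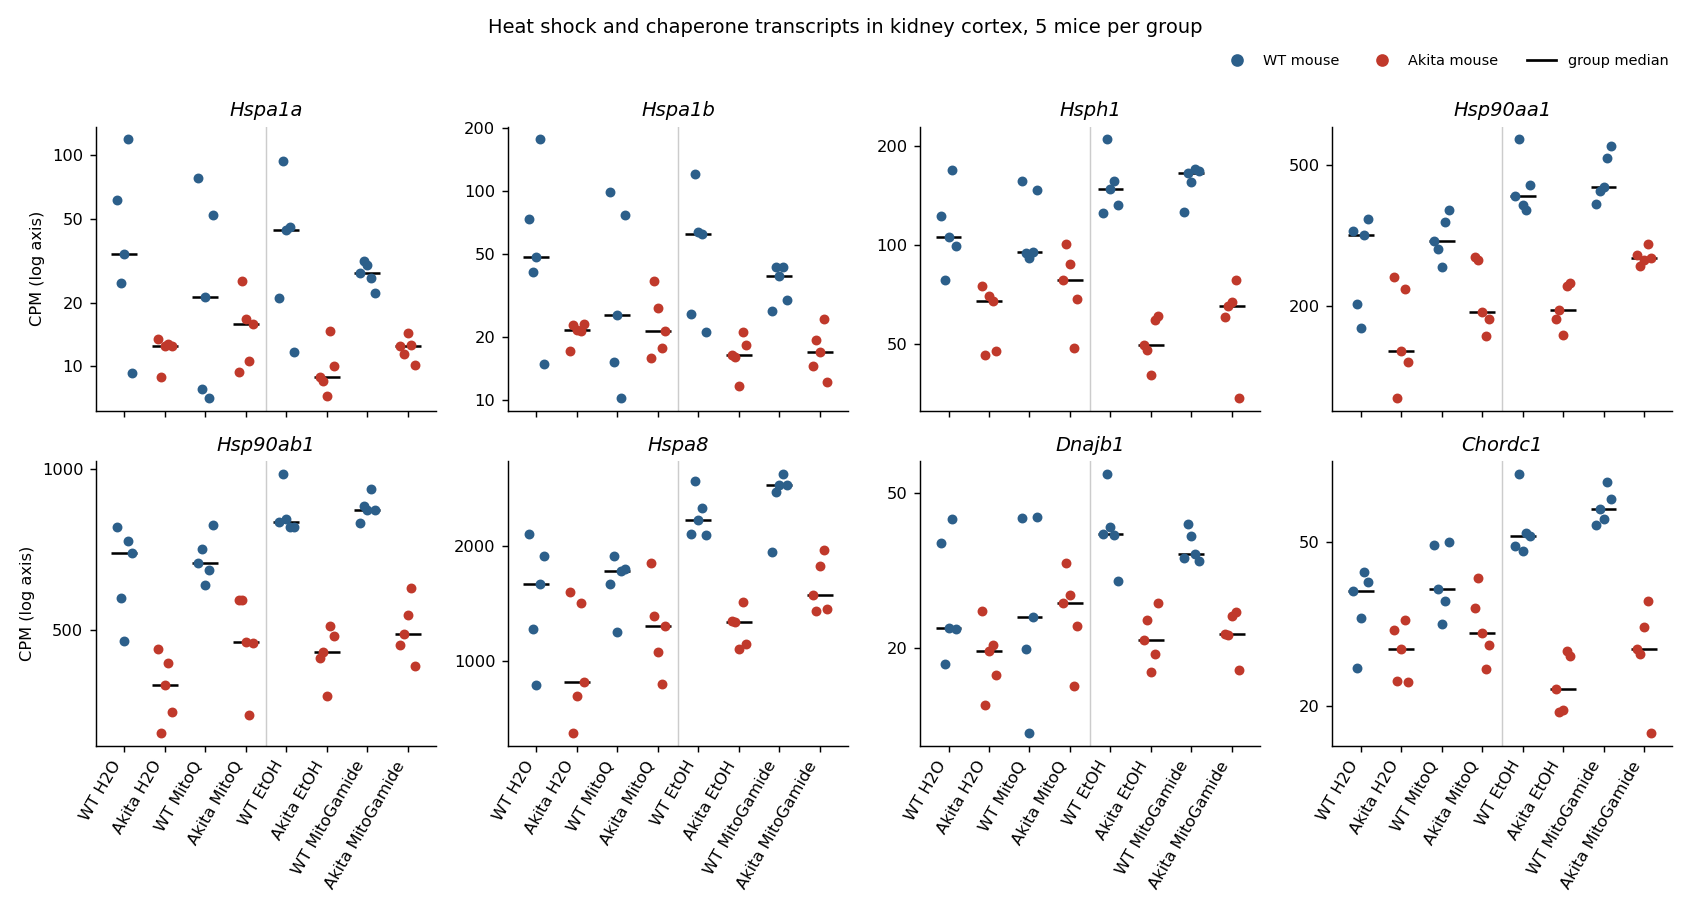
Level of 8 members in all 40 mice, in CPM on a log axis, by treatment and genotype (blue WT, red Akita, 1 point a mouse, bar at the group median). On the ethanol vehicle Hsph1 lay between 40.2 and 61.0 CPM in Akita and between 124.7 and 208.8 CPM in WT mice, and the WT values of Hspa1a and Hspa1b spread more widely than those of Akita mice on both vehicles.

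The wider network was described with 56 further chaperone genes not on the list, of which 54 were tested. On ethanol 11 differed (20.4%, against 16.4% of all genes), 10 lower and 1 higher, and their median log2 fold change was -0.01. The 4 with the smallest p-values were the collagen chaperone Serpinh1 (-0.88, adjusted p = 0.000309), Hspa13 (-0.50), the HSP90 cochaperone Ptges3 (-0.41) and St13, an HSP70-interacting protein (-0.33). By class, 2 of 11 other HSP40 genes, 1 of 4 other HSP70 and HSP110 genes, 1 of 8 further CCT and prefoldin subunits and 3 of 5 other HSF1 targets were lower, and 0 of 5 other small heat shock protein and HSF genes were called. Of 9 BAG and nucleotide exchange genes 1 was higher and 1 lower, with a median of 0.15. Other gene lists moved in the same mice. Of 10 clock genes 7 were called, among them Ciart at 2.59 and Dbp at 2.40 and, in the other direction, Arntl at -1.92 and Npas2 at -2.51, and their summed level was 475 to 578 CPM in Akita and 241 to 381 CPM in WT mice. Of 7 proximal tubule markers 3 were lower (Kap at -1.88, Lrp2 at -0.47 and Slc27a2 at -0.44), with sums of 13580 to 16830 CPM in Akita and 21010 to 27750 CPM in WT mice and no marker at 0. Of 9 immediate early genes 1 was higher. Podocyte markers were higher in 3 of 5, with sums of 243 to 307 CPM in Akita and 197 to 257 CPM in WT mice. Of 5 markers of collecting duct principal cells 2 were higher (Aqp2 and Scnn1b), with sums of 187 to 275 CPM in Akita and 168 to 212 CPM in WT mice. The leukocyte gene Ptprc and the endothelial gene Emcn were each the only one called of the 4 tested of their list, both lower. Of 5 liver genes tested 1 was higher and 2 were lower (Cyp2e1 and Ttr), with sums of 616 to 855 CPM in Akita and 1098 to 1254 CPM in WT mice. The libraries differed too, protein-coding genes holding 60.3% to 68.1% of the counts in Akita and 67.5% to 70.7% in WT mice, and mitochondrially encoded genes 21.6% to 28.7% and 20.1% to 22.6%. The part of these lists and shares in the chaperone result was not tested.

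The same comparison was made in mice on MitoGamide, which share no library with the ethanol comparison. Here 20 of 35 members differed between genotypes (14.3% of all genes), 19 of them lower (6.60% of all genes), with 18 lower without overlap (7.02% of all genes). The 1 called higher (1286 of 16674 genes) was Hspa2 (edgeR adjusted p = 0.0159), kept in 10 of 10 fits that left out 1 library. Hspa2 and Hspa9 were the 2 members higher without overlap, a count given without its share of all genes. Hspa9 was at 484.5 to 513.4 CPM in Akita and at 448.5 to 477.6 CPM in WT mice. Leaving out 1 library at a time, 17 to 22 members were called, and 16 of the 20 were called in all 10 fits, for which no share of all genes is given. Hspa1a was at 27.5, 31.4, 30.1, 26.1 and 22.3 CPM in WT and at 12.4, 11.4, 14.3, 12.6 and 10.1 CPM in Akita mice, and Hspa1b was at 26.7, 43.5, 39.3, 43.3 and 30.0 CPM in WT and at 14.5, 19.3, 16.9, 24.4 and 12.2 CPM in Akita mice. For both genes the genotypes did not overlap, and the WT mice spread less than on ethanol. Hsph1 was at 126, 165, 155, 170.3 and 167 CPM in WT and at 60.4, 65.0, 67.1, 78.1 and 34.3 CPM in Akita mice. These groups did not overlap. Chordc1 was at 55.0, 60, 56.7, 69.6 and 63.4 CPM in WT and at 27.6, 26.7, 31.02, 36.0 and 17.2 CPM in Akita mice, and Ahsa2 was at 23.8, 25.5, 21.0, 22.2 and 24.5 CPM in WT and at 9.74, 13.6, 12.4, 13.7 and 7.86 CPM in Akita mice. Every Akita mouse again lay below every WT mouse, Akita mouse 5 being lowest for both genes. Log2 fold changes were -1.14 for Hspa1a, -1.32 for Hsph1, -1.10 for Chordc1 and -0.99 for Ahsa2 (adjusted p = 0.000237, 0.00130, 0.00174 and 0.00187). Hspb1, lower on ethanol, was at 5.17, 5.36, 4.93, 7.32 and 11.8 CPM in WT and at 4.62, 3.99, 5.35, 4.39 and 14.2 CPM in Akita mice. Akita mouse 5, a library that stood apart, and WT mouse 5 were the highest. The log2 fold change of Hspb1 was -0.10 (interval -0.89 to 0.69), -0.58 without Akita mouse 5 (edgeR adjusted p = 0.129) and 0.20 without WT mouse 5 (adjusted p = 0.728). Bag3 had a value of -0.15, which did not pass either. Of the 10 clock genes 1 was called in these mice (Ciart), while 5 of 9 immediate early genes and 3 of 5 podocyte markers were higher and 4 of 7 proximal tubule markers lower. Principal cell markers were higher in 3 of 5 (Aqp2, Aqp3 and Scnn1b), with sums of 181 to 300 CPM in Akita and 135 to 174 CPM in WT mice. Endothelial markers were higher in 2 of 4 (Cdh5 and Pecam1), with sums of 234 to 344 CPM in Akita and 202 to 333 CPM in WT mice. Among 4 leukocyte genes tested Ptprc alone was called, and was lower. The median log2 fold change of these 4 genes was 0.14. Of 5 liver genes tested 1 was higher (Apoa2). Mitochondrially encoded genes held 28.0% to 35.4% of the counts in Akita and 24.6% to 27.8% in WT mice, without overlap. The part of these lists and shares in the chaperone values was not tested.

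Levels of the other core members on MitoGamide kept the genotypes apart for all but Hspa8. Hspa8 was at 1923, 2764, 2875, 3070 and 2872 CPM in WT and at 1490, 1352, 1768, 1945 and 1366 CPM in Akita mice, with WT mouse 1 and Akita mouse 4 nearly equal. Hsp90aa1 was at 389, 424, 434, 526 and 569 CPM in WT and at 278, 259, 270.1, 299.7 and 272 CPM in Akita mice. For Hsp90ab1 the WT values were 794, 854, 839, 919.5 and 839.5 CPM and the Akita values 469.7, 492, 534, 599 and 429 CPM. These HSP90 groups did not overlap. Dnajb1 was at 34.0, 41.6, 38.8, 34.8 and 33.4 CPM in WT and at 21.8, 21.6, 24.1, 24.8 and 17.6 CPM in Akita mice, and Hspa4l was at 55.4, 59.2, 57.4, 55.2 and 63.4 CPM in WT and at 43.8, 39.1, 43.1, 39.9 and 39.7 CPM in Akita mice, again without overlap.

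On water, 0 of 36 members passed, where 0.552% of all genes did, and 15 members (41.7%) had an unadjusted p under 0.05, of which 14 were lower, against 1384 of 18304 genes (7.56%). DESeq2 called 5 members and 354 of all genes (1.93%). With all 40 libraries in 1 fit 6 members and 2.97% of all genes were called, and with a covariate for the leading axis of replicate differences 13 members, all lower, and 5.47% of all genes. That axis was chosen after seeing the data and was taken from these libraries after group means were removed. It can take out spread within groups but no difference between group means. The median log2 fold change was -0.34, against 0.002 over all genes, and 30 of 36 values were negative. Hspa1a was at 61.5, 24.8, 34.1, 119 and 9.24 CPM in WT and at 13.5, 8.90, 12.4, 12.7 and 12.4 CPM in Akita mice. Hspa1b was at 73, 41.0, 48.4, 176 and 14.8 CPM in WT and at 17.1, 22.9, 21.5, 21.3 and 23.0 CPM in Akita mice. WT mouse 4 was highest and WT mouse 5 fell among or below the Akita mice for both genes, whose log2 fold changes of -2.03 ± 0.52 and -1.73 ± 0.49 had adjusted p = 0.151 and 0.217 in edgeR. Without WT mouse 4, a library that stood apart, the values were -1.43 and -1.07 (adjusted p = 0.308 and 0.420), and without WT mouse 5 they were -2.28 and -1.97 (adjusted p = 0.0362 and 0.0546), Hspa1a then being called. Hsph1 was at 123, 78.0, 106, 168 and 98.9 CPM in WT and at 74.8, 46.4, 70.2, 67.3 and 47.7 CPM in Akita mice, and Hsp90ab1 was at 781, 575, 477, 733 and 697 CPM in WT and at 462, 322, 395, 434 and 352 CPM in Akita mice. Along with Ahsa2 these were the 3 members whose Akita values all lay below the WT values, against 1.60% of all genes, and Ahsa2 had the smallest adjusted p, 0.0612.

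The remaining core members overlapped on water. Hspa8 was at 2145, 1212, 869, 1590 and 1884 CPM in WT and at 1514, 651, 813, 1418 and 886 CPM in Akita mice. Hsp90aa1 was at 325, 202, 173, 317 and 352 CPM in WT and at 241, 109, 148.3, 223 and 138 CPM in Akita mice. Dnajb1 was at 37.3, 18.2, 22.5, 43.1 and 22.4 CPM in WT and at 24.99, 14.3, 19.7, 20.4 and 17.0 CPM in Akita mice. Among both genotypes the lowest Hspa8 and Hsp90aa1 values came from libraries named above for their low correlation with the others (WT 2 and 3, Akita 2, 3 and 5). The log2 interval for Hspa8 was -1.23 to 0.15 and that for Hsp90aa1 -1.27 to -0.07.

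Among mice on MitoQ 0 of 35 members passed between genotypes (0.557% of all genes), and 8 (22.9%) had an unadjusted p under 0.05, against 1644 of 18143 genes (9.06%). DESeq2 called 0 members and 415 of all genes (2.29%). Of the 35 values 29 were negative, with a median of -0.21. Hspa1a was at 78.2, 7.79, 21.2, 7.05 and 51.9 CPM in WT and at 9.40, 25.2, 16.7, 10.6 and 15.8 CPM in Akita mice. Hspa1b was at 98.8, 15.2, 25.5, 10.2 and 76.5 CPM in WT and at 16.0, 37.3, 27.6, 17.8 and 21.3 CPM in Akita mice. WT mice 1 and 5 were high, and WT mice 2 and 4 were below every Akita mouse for both genes. Hsp90ab1 was at 668, 709, 608, 649.6 and 788 CPM in WT and at 569, 571, 476, 348 and 473 CPM in Akita mice, the only member whose Akita values all lay lower (1.54% of all genes). Hspa2 was the only member whose Akita values all lay higher (1.39% of all genes). Hsph1 was at 156, 94.5, 91.1, 95.3 and 147 CPM in WT and at 78.1, 100.7, 87.7, 48.8 and 68.6 CPM in Akita mice. Hspa8 was at 1592, 1884, 1195, 1724 and 1740 CPM in WT and at 1804, 1309, 1056, 875 and 1237 CPM in Akita mice. Both of these overlapped between genotypes. Hsp90aa1 was at 305, 289, 257, 345 and 374 CPM in WT and at 275, 270, 192, 164 and 183 CPM in Akita mice, and Dnajb1 was at 43.1, 19.9, 12.1, 24.1 and 43.4 CPM in WT and at 26.1, 33.1, 27.4, 16.0 and 22.8 CPM in Akita mice, also with overlap.

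**Figure D2:**
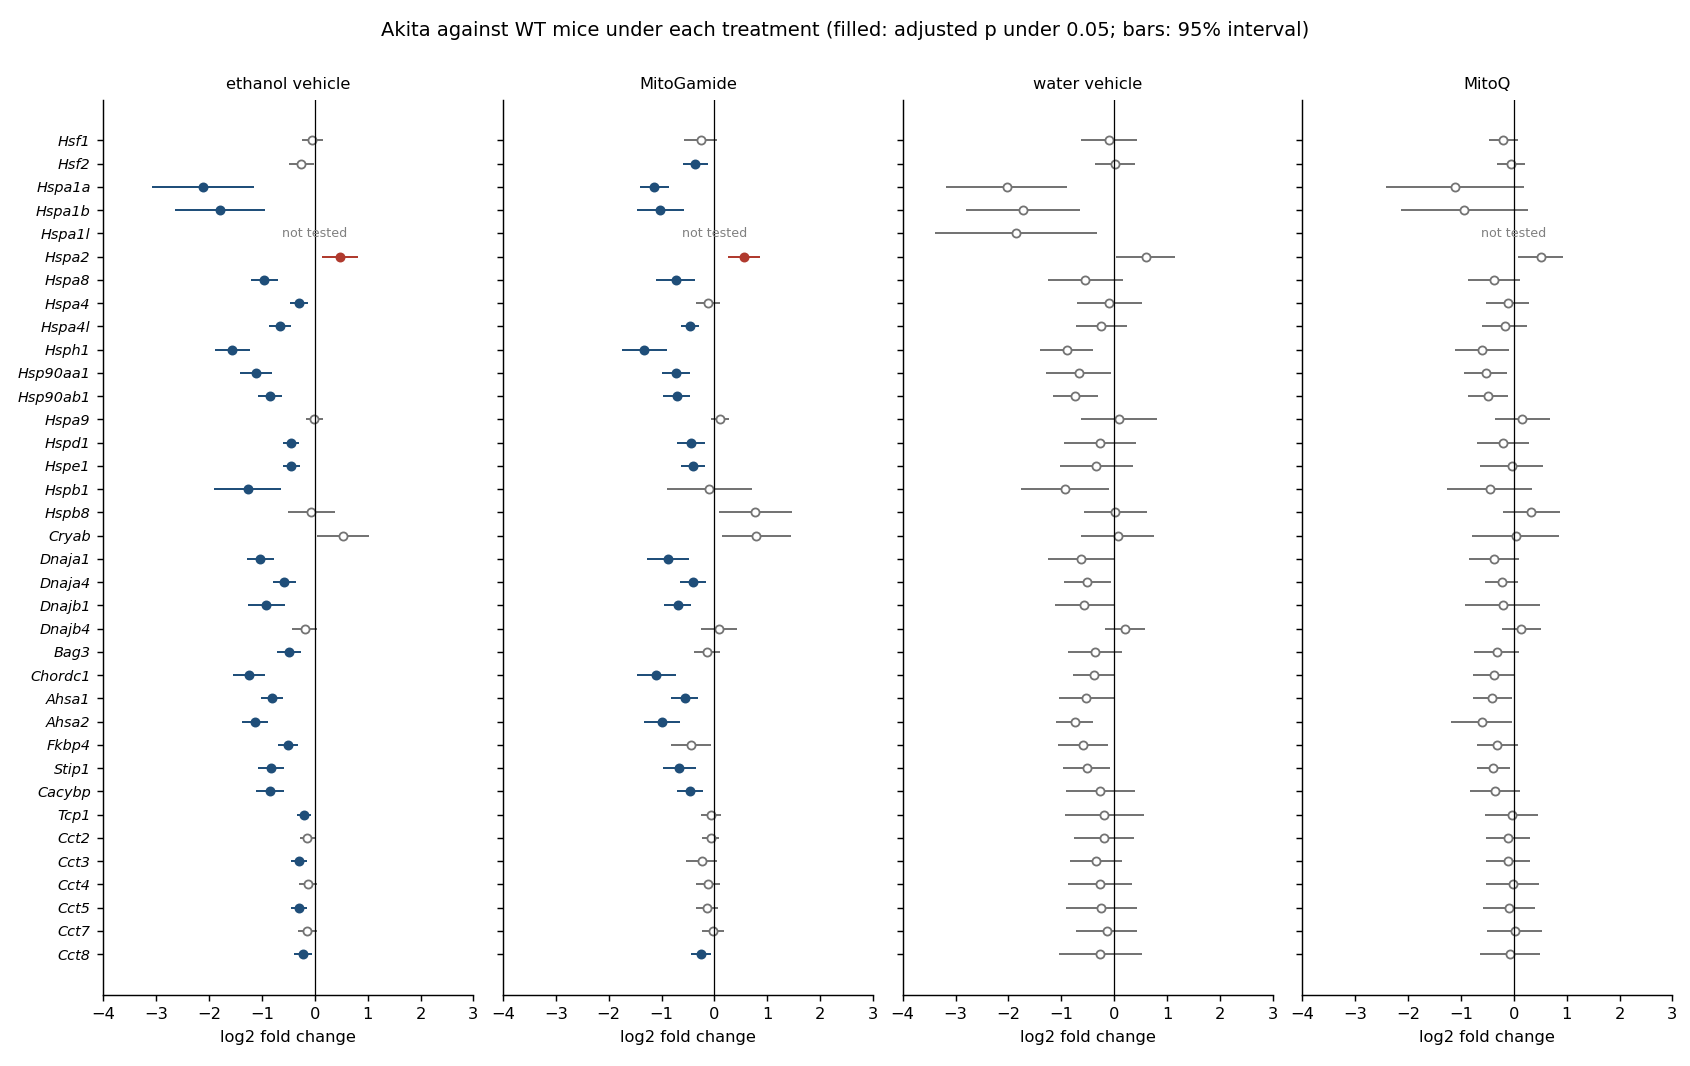
Log2 fold change, Akita against WT, of each member in the 4 treatments, with 95% intervals from edgeR (points to the left of 0 are lower in Akita mice, filled points passed an adjusted p of 0.05). Of the members tested 33 lay left of 0 on ethanol, 30 on MitoGamide, 30 on water and 29 on MitoQ, and only ethanol and MitoGamide show filled points.

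Over all 40 mice, with treatment as a covariate, 23 of 35 members differed by genotype (22.8% of all genes), 22 of them lower (11.8% of all genes), and the median was -0.36 against -0.02 over all genes. Adjusted p-values were smallest for Hsp90ab1 (-0.71 ± 0.07, adjusted p = 1.49e-10), Hsph1 (-1.11 ± 0.12, adjusted p = 1.79e-09) and Ahsa2 (-0.88 ± 0.09, adjusted p = 2.06e-09). Of the 20 Akita mice 16 had less Hsph1 than any WT mouse, 14 had less Ahsa2 and 13 had less Hsp90ab1. Hspa1a had a larger log2 fold change, -1.61 ± 0.26, with more spread, and no Akita mouse lay below all WT mice while 12 of 20 WT mice lay above all Akita mice. Stip1, at -0.62, Hsp90aa1, at -0.78, Chordc1, at -0.79, Ahsa1, at -0.59, and Dnaja1, at -0.74, were the next by p-value. Over the treatments, Hsp90ab1 ran from 322 over a median of 466 to 599 CPM in the 20 Akita mice and from 477 over 781 to 979 CPM in the 20 WT mice. Hsph1 ran from 34.3 over a median of 63.0 to 100.7 CPM in the 20 Akita mice and from 78.0 over 139 to 209 CPM in the 20 WT mice, and Ahsa2 ran from 7.86 over a median of 12.1 to 17.9 CPM in the 20 Akita mice and from 12.8 over 23.0 to 31.1 CPM in the 20 WT mice. These 3 genes overlapped between genotypes at the edges of their ranges. Stip1 ran from 28.7 over a median of 37.8 to 52.4 CPM in the 20 Akita mice and from 36.4 over 58.2 to 89.6 CPM in the 20 WT mice, and Hsp90aa1 ran from 109 over a median of 225 to 299.7 CPM in the 20 Akita mice and from 173 over 374 to 592 CPM in the 20 WT mice. Chordc1 ran from 17.2 over a median of 27.3 to 40.8 CPM in the 20 Akita mice and from 24.7 over 48.9 to 72.8 CPM in the 20 WT mice. Ahsa1 ran from 16.8 over a median of 28.7 to 38.1 CPM in the 20 Akita mice and from 24.5 over 44.9 to 58.2 CPM in the 20 WT mice, and Dnaja1 ran from 58.9 over a median of 122 to 174 CPM in the 20 Akita mice and from 86.1 over 215 to 326 CPM in the 20 WT mice. Each WT median lay above the highest Akita mouse for all 8 of these genes. Hspa2, at 0.52 ± 0.08 (adjusted p = 6.29e-06), remained the single member that was higher. Of the 7 CCT subunits 1 was called (Cct3), and Hsf2 was lower at -0.18. Without the mice on the ethanol vehicle 15 members were called, and the water mice alone and the MitoQ mice alone gave 0. The 22.8% above belongs to the fit of all 40 mice, and no share of all genes is given for these subsets.

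In the wider network 15 of 53 genes (28.3%, against 22.8% of all genes) differed by genotype over all mice, 10 lower and 5 higher. The smallest p-values were those of Serpinh1 (-0.69), the HSP40 Dnajb2, best known from neurons (-0.38), the cyclophilin Ppid (-0.34) and Bag2 (0.46). Of the 10 clock genes 7 were called in this comparison too, 3 of 6 glucocorticoid response genes were higher and 4 of 7 proximal tubule markers were lower. Markers were higher in 3 of 5 for podocytes and 3 of 5 for principal cells, and of 4 endothelial markers 2 were higher (Cdh5 and Pecam1) and 1 lower (Emcn). Lower were 1 of 4 leukocyte genes tested (Ptprc), 2 of 6 liver genes (Cyp2e1 and Ttr) and 1 of 4 thick limb genes (Umod). Whether these had a part in the chaperone values was not tested.

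The difference between genotypes was itself compared between treatments by interaction terms. For each of the 3 terms 0 of 35 members passed in edgeR (0% of all genes), so the larger number of calls on ethanol than on water is not shown to be a difference between the arms. For ethanol against water 3 members (8.57%) had an unadjusted p under 0.05 (767 of all genes, 4.25%), and DESeq2 called 0 members and 2 of all genes (0.0111%). For MitoGamide against ethanol 5 members (14.3%) had an unadjusted p under 0.05 (1435 of all genes, 8.32%), all with a positive term, and DESeq2 called 0 (0% of all genes). For MitoQ against water 0 members did (207 of all genes, 1.14%), and DESeq2 called 0 (0% of all genes).

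In Akita mice on MitoGamide 2 members were called higher, Cacybp and Hsp90aa1, and neither call was kept with all 40 libraries in 1 fit (0 members, 0.24% of all genes) or with the replicate number as a block (0 members, 0% of all genes). Against Akita mice on ethanol, a comparison that shares those 5 libraries with the genotype comparison on ethanol, 2 of 35 members were called higher and 0 lower, against 1.26% of all genes called and 0.833% called higher. In this comparison 10 members (28.6%) had an unadjusted p under 0.05, all higher, against 3564 of 17051 genes (20.9%), 30 of 35 values were positive and the median log2 fold change was 0.19 (-0.002 over all genes). Cacybp, the calcyclin-binding protein that interacts with Siah1, was at 15.8, 15.8, 14.4, 16.5 and 17.2 CPM on ethanol and at 22.9, 22.3, 24.0, 23.7 and 22.2 CPM on MitoGamide. The groups did not overlap, and the log2 fold change was 0.54 ± 0.07 (adjusted p = 0.0261). For Hsp90aa1, with the values given above, the log2 fold change was 0.47 ± 0.10 (adjusted p = 0.0466), every treated mouse lying above every mouse on ethanol. In WT mice on ethanol Cacybp stood at 28.3, 39.1, 26.2, 25.2 and 26.3 CPM, above all Akita mice of either treatment.

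Treated and ethanol mice did not overlap for 5 members (Hspa4l, Hsp90aa1, Hspa9, Cacybp and Tcp1), all higher on MitoGamide, against 4.23% of all genes. Log2 fold changes of the inducible core were 0.31 ± 0.17 for Hspa1a, 0.08 ± 0.19 for Hspa1b, 0.26 ± 0.19 for Hsph1 and 0.05 ± 0.13 for Dnajb1, and none passed. Constitutive Hspa8 was at 0.38 ± 0.13 (adjusted p = 0.143) and Hsp90ab1 at 0.16 ± 0.11 (adjusted p = 0.440). Neither call held in all fits with a mouse left out, that of Cacybp being kept in 5 of 10 and that of Hsp90aa1 in 1 of 10. With an Akita ethanol mouse missing, whichever it was, 0 members were called, without Akita MitoGamide 1, 2, 3 or 4 there was 1, and without Akita MitoGamide 5, which stood apart from the other libraries, there were 6. The share of all genes called in each of these fits is not given, so the counts describe the members only. Endothelial markers summed to 178 to 223 CPM on ethanol and to 234 to 344 CPM on MitoGamide, without overlap, with 1 of 4 called (Cdh5, higher) and a median log2 fold change of 0.57. Mitochondrially encoded genes held 21.6% to 28.7% of the counts on ethanol and 28.0% to 35.4% on MitoGamide. The part of these 2 measures in the result was not tested. In the wider network 1 gene was called, the CCT subunit Cct6a (0.30, adjusted p = 0.0422).

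In WT mice MitoGamide gave 0 called members of 35 in edgeR, 0 at an unadjusted p under 0.05 and 0 in DESeq2. Of all 17395 genes edgeR called 0 (0%), 1841 (10.6%) had an unadjusted p under 0.05 and DESeq2 called 74 (0.425%). The smallest adjusted p of a member was 0.519, and 19 values were positive and 16 negative, from -0.70 to 0.21. WT mice on ethanol and on MitoGamide overlapped for all 35 members, and the share of all genes without overlap is not given for this comparison.

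MitoQ gave 0 called members in either genotype (0% of all genes). In Akita mice, against water, 0 of 35 members had an unadjusted p under 0.05 (363 of all genes, 1.96%), 30 of 35 values were positive with a median of 0.18, and DESeq2 called 0 (0% of all genes). The smallest adjusted p was 0.999. In WT mice 1 of 36 members had an unadjusted p under 0.05 (2.78%, Hspa1l, lower), against 575 of all genes (3.22%), 19 values were positive and 17 negative, and DESeq2 called 0 (2 of all genes, 0.0112%). No member was free of overlap between treated and water mice in either genotype, and the share of all genes free of overlap is not given for MitoQ. Members ranged in log2 fold change from -0.23 to 0.48 in Akita and from -1.05 to 0.32 in WT mice.

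**Figure D3:**
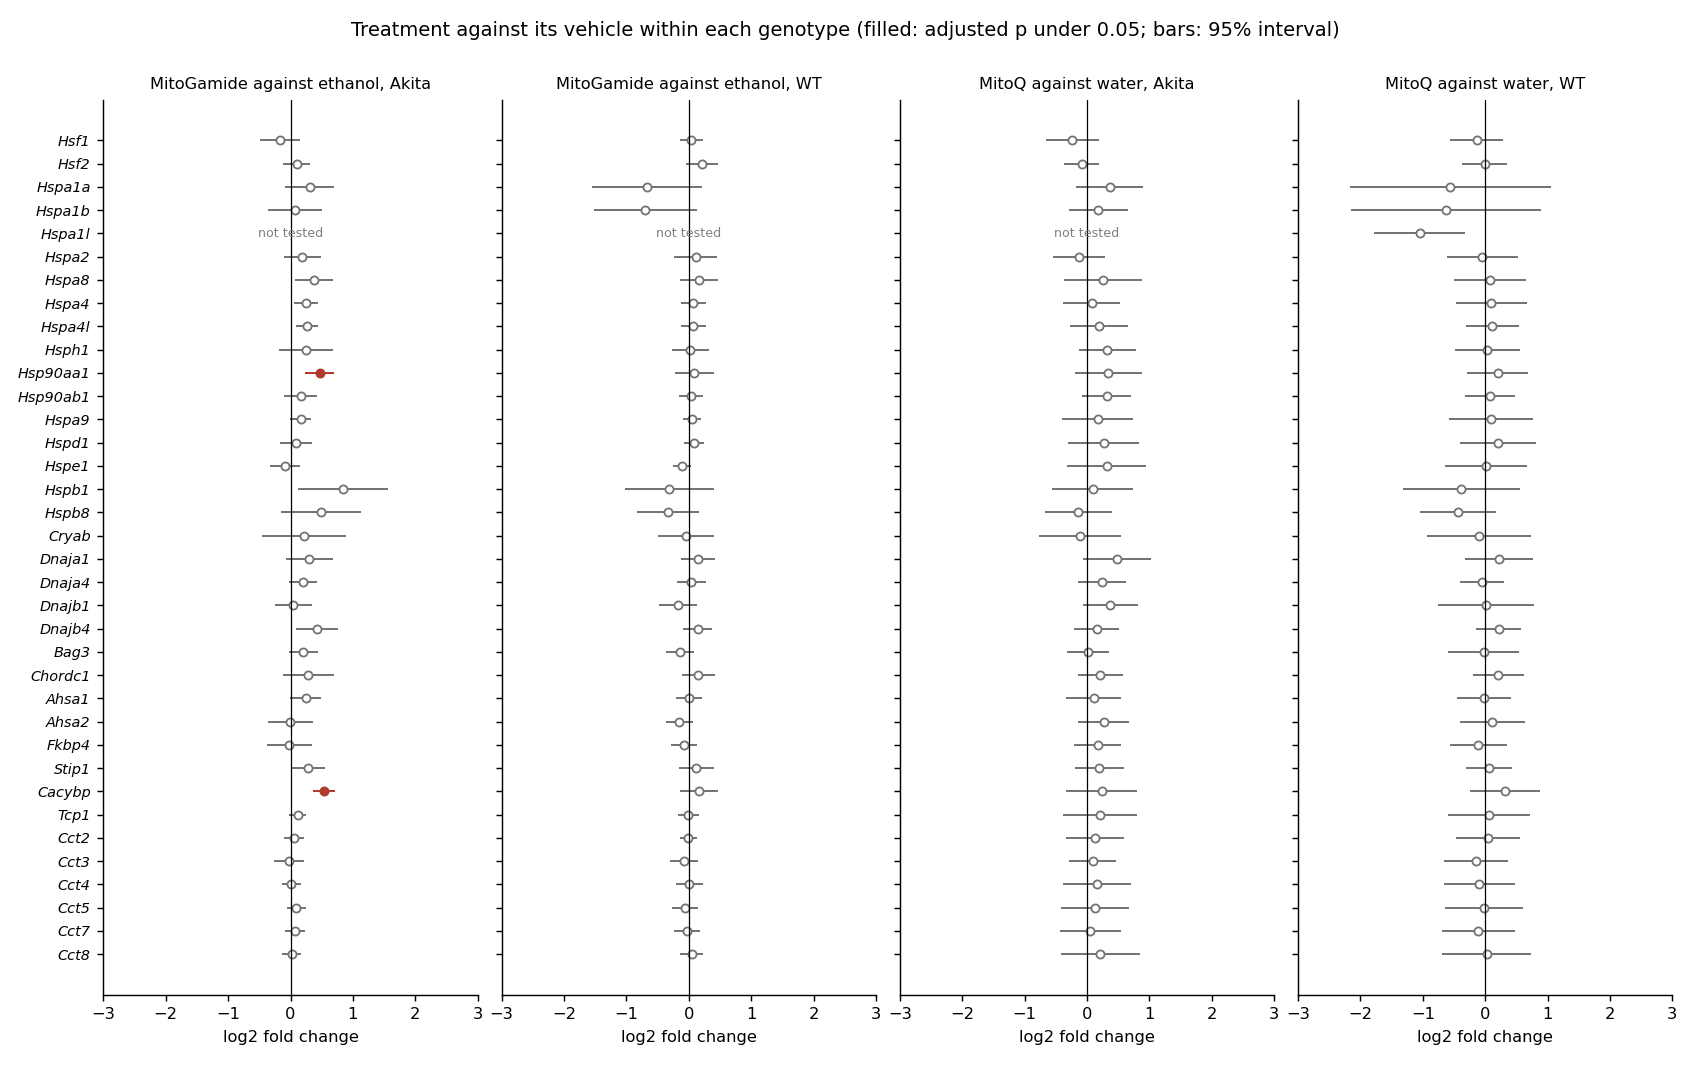
Log2 fold change of each member for MitoGamide against ethanol and for MitoQ against water, in Akita and in WT mice, with 95% intervals from edgeR (filled points passed an adjusted p of 0.05). Only Cacybp and Hsp90aa1 are filled, both for MitoGamide in Akita mice.

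The vehicles were compared last. In WT mice on ethanol against water 0 of 36 members passed in edgeR (0% of all genes), while 18 (50%) had an unadjusted p under 0.05, 15 of them higher on ethanol, against 4959 of 18092 genes (27.4%), and DESeq2 called 6 members and 725 of all genes (4.01%). With all 40 libraries in 1 fit 6 members and 8.68% of all genes were called, and with the axis covariate 26 members and 37.6% of all genes. This covariate, chosen after seeing the data, can take out spread within groups only. Values were positive in 30 of 36 with a median of 0.41, against -0.04 over all genes. Of the members 7 were higher on ethanol without overlap (Hspa4l, Hsp90aa1, Hspe1, Dnaja1, Chordc1, Ahsa1 and Cacybp), against 1.69% of all genes. The count of calls rose to 16 when WT water mouse 5 was left out, a fit for which no share of all genes is given. In Akita mice 1 of 35 members passed, where 12.7% of all genes did and 3.66% were higher, and 24 values were positive with a median of 0.22. An unadjusted p under 0.05 was found for 9 members (25.7%) and for 39.7% of all genes, DESeq2 called 3 members and 23.8% of all genes, and with the axis covariate 21 members and 50% of all genes were called. The called member was Hspe1, the mitochondrial co-chaperonin, at 47.5, 41.8, 37.6, 42.7 and 44.9 CPM on ethanol and at 38.4, 16.2, 22.0, 32.1 and 21.1 CPM on water. The highest water mouse lay inside the ethanol range, and the log2 fold change was 0.73 ± 0.20 (adjusted p = 0.0393). Hspe1 shares 48.1% of its 31-base words with other genes. Its call was kept in 2 of 10 fits that left out 1 library, and was lost with the replicate number as a block (0 members, 0% of all genes). There were 11 members called without Akita water mouse 1, 6 without Akita water mouse 4 and 0 without the libraries that stand apart. Shares of all genes are not given for these reduced fits. The 3 Akita and 3 WT water libraries that stood apart are in these comparisons. In Akita mice protein-coding genes held 60.3% to 68.1% of the counts on ethanol and 36.7% to 65.4% on water, and mitochondrially encoded genes 21.6% to 28.7% and 24.2% to 43.1%. In WT mice these shares were 67.5% to 70.7% on ethanol and 47.0% to 73.5% on water, and 20.1% to 22.6% and 14.3% to 37.3%. Of the marker lists, 2 of 5 podocyte genes (Nphs1 and Wt1) were lower on ethanol in Akita mice. In the same mice 1 of 4 thick limb genes (Cldn16) and 1 of 10 clock genes (Nr1d2) were higher. The median log2 fold change was 0.32 over the thick limb list and 0.01 over the clock list. The part of these shares and markers in the vehicle values was not tested.

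Any difference among the 8 groups was found for 32 of 35 members, against 64.3% of all genes. Pairs of genes were then compared between mice of the same group, after each group's mean was taken off log2 CPM (8 pairs, 40 mice, 100000 permutations within groups, two-sided, 1e-05 being the smallest p these can give). Hspa1a and Hspa1b varied together (Pearson r = 0.958, Spearman rho = 0.862, adjusted permutation p = 2e-05), with r = 0.943 without the 2 mice farthest from the median, 0.911 in the ethanol and 0.974 in the water arm. The part of the reads that these 2 genes share was not tested. Hspd1 and Hspe1, with 215 bases between their RefSeq starts and overlapping Gencode models, gave r = 0.95 and rho = 0.893 (adjusted permutation p = 2e-05, 0.952 without 2 mice, 0.803 and 0.962 in the arms). Of their 31-base words 50.1% (Hspd1) and 48.1% (Hspe1) recur in other genes, and the part of such reads was not tested. The CCT subunits Cct2 and Cct5 gave r = 0.951 and rho = 0.878 (adjusted permutation p = 2e-05, 0.931 without 2 mice), and r was 0.55 in the ethanol arm against 0.972 in the water arm, which holds 9 of the 10 libraries that stand apart. Hspa8 and Hsp90aa1 gave r = 0.844 and rho = 0.808 (adjusted permutation p = 2e-05, 0.818 without 2 mice, 0.57 and 0.918 in the arms).

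Other pairs were looser. Hspa1b and its HSP40 partner Dnajb1 gave r = 0.666 and rho = 0.684 (adjusted permutation p = 0.00273), with r = 0.587 without 2 mice, 0.755 in the ethanol and 0.65 in the water arm. Hsph1 and Hsp90aa1 gave r = 0.586 and rho = 0.623 (adjusted permutation p = 0.000432, 0.617 without 2 mice, 0.569 and 0.609 in the arms). For the small heat shock proteins Hspb1 and Cryab r was 0.203 and rho 0.234 (adjusted permutation p = 0.342, r = 0.318 without 2 mice, -0.0459 and 0.366 in the arms). Hspb1 shares 52.3% of its words, mainly with the pseudogene Hsp25-ps1. For Hspb1 and Cryab, as for Hspa1b and the immediate early gene Fos (r = 0.149, rho = 0.14, adjusted permutation p = 0.442, r = 0.174 without 2 mice, -0.124 and 0.303 in the arms), no relation was detectable.

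**Figure D4:**
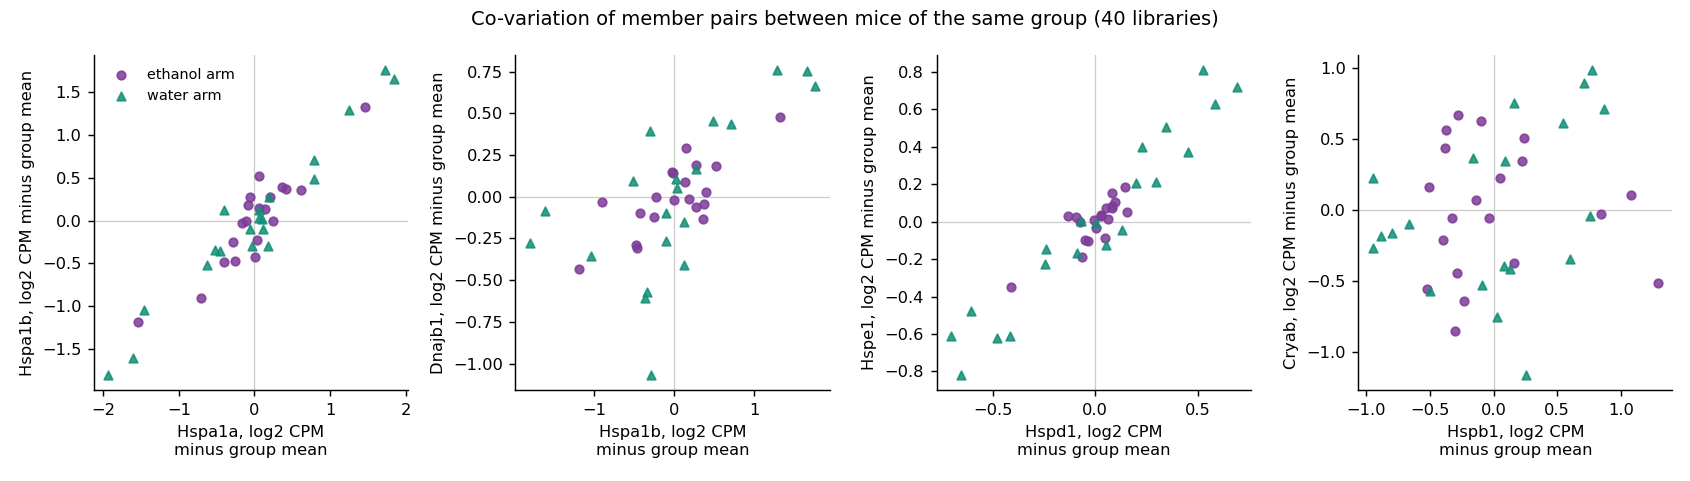
Log2 CPM of 4 pairs of members in each mouse after the mean of its group was taken off (circles ethanol arm, triangles water arm). Points lie close to a line for Hspa1a with Hspa1b (r = 0.958) and Hspd1 with Hspe1 (r = 0.95), more loosely for Hspa1b with Dnajb1 (r = 0.666), and along none for Hspb1 with Cryab (r = 0.203).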

How the data were processed

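RNA depleted of ribosomal RNA was made into strand-specific libraries from 40 renal cortices, and the authors trimmed reads with Skewer, assigned them to mouse transcripts (Gencode) with kallisto and summed transcripts to genes. The submitters' processing notes give kallisto 0.46.1, R 4.0.2 and GRCm38. The deposited values are estimated counts, whole numbers for 55401 genes. Groups follow the sample titles. For each comparison edgeR 4.0.16 (quasi-likelihood, TMM, R 4.3.3) was given the libraries of its groups alone and the genes averaging 10 counts or more, with Benjamini-Hochberg adjustment over all genes tested, an adjusted p under 0.05 being called. The study's tool, DESeq2 (here 1.42.0), was an alternative. Intervals are 95% limits from the SE and residual degrees of freedom. Log2 CPM for pairs of genes used a prior count of 2. Figures used matplotlib 3.10.9 with Python 3.11.15, and permutations numpy 2.4.6. The fitting was tested on simulated counts. Members and gene lists were chosen with earlier results of these data known. Values of every library are given for 7 core members (Hspa1a, Hspa1b, Hspa8, Hsp90aa1, Hsp90ab1, Hsph1 and Dnajb1) and for up to 8 called members of a comparison, those with the smallest p (as the lowest, median and highest of each genotype for all 40 mice), and from the network list up to 4 called genes were named per comparison. Alternatives were no filter, a filter of 10 counts in every library, another scaling, a replicate block, 1 fit of all libraries, sums with near-identical copies, and each library left out. Chosen after seeing the data were leaving out the 10 libraries that stood apart, a covariate for the leading axis along which replicates differed, and leaving out each library, DESeq2 and the block for the genotypes on MitoGamide and on MitoQ. Depth ran from 9106654 to 24321424 counts a library. Kallisto divides reads between near-identical genes. Shared sequence was measured as the share of 31-base words found in another gene. No pair of libraries of a group agreed within counting error.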

Additional observations from a re-analysis of the deposited data

Results flagged for a closer look

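Single mice lay far from the other 4 of their group (gap over range above 0.71) in 13 of 120 gene and group combinations, 15 members in 8 groups. A rate of about 1 in 20, or 6, would hold for independent normal values. The members were taken partly because they were called, and several vary together, so no excess can be read from the 13. WT ethanol mouse 2 accounted for 7 of the 13 and was high in each. It had 978.9 CPM of Hsp90ab1 (other mice 781 to 806.5), 326.2 of Dnaja1 (216 to 233.4), 58.21 of Ahsa1 (46.44 to 49.63), 72.84 of Chordc1 (47.35 to 52.47), 39.06 of Cacybp (25.17 to 28.25), 85.13 of Stip1 (55.62 to 61.69) and 68.27 of Hspa4l (49.82 to 53.99). Without this mouse 24 members were called between genotypes on ethanol, a fit for which no share of all genes is given.

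The other 6 values were low. Hspa1a was at 8.898 CPM in Akita water mouse 2 (others 12.39 to 13.51), and Hspa1b was at 17.12 in Akita water mouse 1 (21.33 to 22.97). Hspa8 was at 1923 in WT MitoGamide mouse 1 (2764 to 3070), and Hspe1 was at 51.68 in WT MitoGamide mouse 2 (55.15 to 56.24). Dnaja1 was at 84.3 in Akita MitoGamide mouse 5 (150 to 171), and Ahsa1 was at 25.52 in WT MitoQ mouse 3 (38.41 to 40.05). Akita water mouse 2, Akita MitoGamide mouse 5 and WT MitoQ mouse 3 are among the libraries that stood apart. No cause was tested.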

How the results depend on the processing

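Of the counts of called members 233 under an alternative stayed within 1.5 times the reported count and 42 moved, and of the single genes' values 1252 kept their direction and side of the threshold, 153 lost and 15 gained a call, and 8 reversed. Between genotypes on ethanol 16 members were called in 1 fit of all 40 libraries and 23 to 27 under the other alternatives (23 to 26 with 1 library left out, 27 with near-identical copies summed). Leaving out 1 library at a time, 23 of the 26 calls were kept in all 10 fits, and Cct8, Hspa2 and Tcp1 were lost in some. On MitoGamide 22 members were called between genotypes with DESeq2 (18.5% of all genes) and 17 to 22 with 1 library left out, Cct8, Dnaja4, Hsf2 and Hspd1 being lost in some. On water the count was 5 with DESeq2 (1.93% of all genes), 6 in 1 fit of all libraries, 13 with the axis covariate and 0 to 1 with 1 library left out (1 without WT water mouse 5). Over all mice it was 15 without the ethanol mice and 0 for water or MitoQ mice alone. MitoGamide in Akita mice gave 5 with DESeq2 (6.27% of all genes), 1 with no filter, 1 with 10 counts in every library, 0 in 1 fit of all libraries, 6 without the libraries that stand apart and 0 to 6 with 1 library left out. Ethanol against water in WT mice gave 6 with DESeq2 (4.01% of all genes), 6 in 1 fit of all libraries, 26 with the axis covariate and 0 to 16 with 1 library left out, and in Akita mice 3 with DESeq2 (23.8% of all genes), 0 without the libraries that stand apart, 21 with the axis covariate and 0 to 11 with 1 library left out. MitoGamide in WT mice, MitoQ in either genotype, the genotypes on MitoQ and all interactions gave 0 members in every alternative run. For fits with another filter or with libraries or groups left out, no share of all genes is given. Their member counts therefore have no background beside them. The axis covariate can take out spread within groups only. The cause of these shifts was not tested.

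With the replicate number as a block 23 members were called between genotypes on ethanol (14.5% of all genes) and 20 on MitoGamide (13.7% of all genes). The block gave 0 members for MitoGamide in Akita mice and 0 for ethanol against water in Akita mice, with 0% of all genes in both. Same-numbered mice did not pair, the correlation of their deviations running from -0.608 to 0.788 over 40 pairs, with the own number best in 8 of 40.

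In Akita mice the MitoGamide log2 fold change reversed when Akita ethanol mouse 3 or Akita MitoGamide mouse 4 was left out, and with 1 library left out it ran from -0.078 to 0.182 for Hspa1b and from -0.019 to 0.129 for Dnajb1. Hspb1 between genotypes on MitoGamide ran from -0.575 to 0.201 with 1 library left out, reversing without Akita mouse 2 or 4 or WT mouse 5. Hsf2 between genotypes reversed to 0.014 in water mice alone. Depth limits the low members, of which Hspa1l was mostly untested.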

Other observations

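Genes of the wider chaperone network that the comparisons above do not describe were few. Between genotypes on MitoGamide 5 of 53 (9.43%) were called, against 14.3% of all genes. Ppid (-0.44 on the log2 scale, edgeR adjusted p = 0.00637), Hspa13 (-0.45), Ptges3 (-0.24) and Dnajb2 (-0.45) were lower, and Grpel1, the nucleotide exchange factor of the mitochondrial HSP70, was higher at 0.46 (adjusted p = 0.00794). Dnajb2 was the fifth by p-value and was named after its value was seen. Between vehicles in Akita mice 3 of 54 (5.56%) were called, against 12.7% of all genes. Hspb7 was lower on ethanol at -0.69 (adjusted p = 0.0369), while Hspbp1 at 0.39 and the mitochondrial ribosomal protein gene Mrpl18 at 0.53 were higher (adjusted p = 0.0457 and 0.036).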
